A study of Bos taurus with 11 samples.

Results

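*MiR-221* and *miR-222* are 2 of the 796 mature miRNAs in the count table of bovine mammary gland (MG) small RNA, and they were taken from it by their names, bta-miR-221 and bta-miR-222. Small RNA was sequenced from MG biopsies of 5 Holstein and 6 Montbéliarde cows, with 1 library per cow. All cows were in mid-lactation and on the same diet, no treatment was applied, and the ages of the cows are not given in the labels. Each biopsy was taken from a single place in the rear udder, so that a library describes a mixture of secretory, stromal, vascular and blood cells. Mastitis had removed a Holstein animal beforehand. The comparison of the breeds asks whether miRNA levels differ between cows with different dairy performance.

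*MiR-221* and *miR-222* are processed from neighbouring hairpins of a primary transcript on chromosome X and have the same seed, the stretch at the 5′ end of a miRNA that pairs with its targets. Their well-known targets in human and mouse cells include the cell cycle inhibitor *CDKN1B*, the receptor tyrosine kinase *KIT* and the oestrogen receptor gene *ESR1*. They are known from endothelial cells and vascular smooth muscle cells, and in human breast cancer they are higher in cells without the oestrogen receptor. In the RefSeq annotation of ARS-UCD2.0, a later bovine assembly than the one the authors used, *MIR222* and *MIR221* each have 1 gene and are consecutive miRNA genes on chromosome X. By position, both lie within the annotated gene *LOC132344329*, and strands were not compared. No coordinates are given because the assemblies differ.

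Holstein libraries held 7431936 to 16808976 counted reads and Montbéliarde libraries 6087865 to 11395785. Levels are given as normalized read counts, which are raw counts divided by 1 size factor per library. The tags of the Holstein libraries run from CNLX1 to CNLX9 and those of the Montbéliarde libraries from CNLX13 to CNLX23. The labels do not say what the tags stand for, and tag order and breed cannot be told apart. The Montbéliarde libraries CNLX15 and CNLX21 had the lowest levels of epithelial miRNAs of the 11 libraries. They also had the highest levels of *miR-221* and *miR-222*. The breed differences of *miR-221* and *miR-222* and their correlation with each other are given with and without these libraries. So are their correlations over all libraries with lists of epithelial, fibroblast and smooth muscle, and leukocyte miRNAs. Other results are not given without both.

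*MiR-221* was a miRNA of intermediate abundance. Its normalized read count was 1569 in CNLX1, 1399 in CNLX3, 1453 in CNLX5, 1518 in CNLX7 and 1442 in CNLX9, the 5 Holstein libraries. In the 6 Montbéliarde libraries the lowest count was 1393 in CNLX13, the median 1919 and the highest 4642 in CNLX15. The Holstein cows were thus close to each other, whereas the Montbéliarde cows extended from just below the lowest Holstein cow to more than any other library. Of the Montbéliarde libraries, 4 were above every Holstein library, and the breeds overlapped through CNLX13 and CNLX23. The latter had 1563.

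Holstein cows had a mean *miR-221* count of 1476 ± 67.0 (SD, n = 5) and Montbéliarde cows one of 2307 ± 1197 (SD, n = 6), so that the ratio of means was 1.56. The log2 fold change (log2FC, Montbéliarde over Holstein) was 0.63 with a standard error of 0.26, and it did not pass the threshold (adjusted p = 0.309 by the quasi-likelihood test of edgeR, after Benjamini-Hochberg over 550 miRNAs). In this comparison 0.364% of the miRNAs tested were called at an adjusted p of at most 0.05, none of them higher in Montbéliarde. With DESeq2, which called 3.96% of the miRNAs it adjusted, *miR-221* did not pass either (adjusted p = 0.205). The unadjusted p of *miR-221* was 0.0301, with 7.64% of the tested miRNAs at or below 0.05 and higher in Montbéliarde. By an exact two-sided permutation test on log2 levels, with 462 ways to divide the libraries, p was 0.0563, and the smallest p this design allows is 0.00433. Neither *miR-221* nor *miR-222* was among the 2% of tested miRNAs whose levels did not overlap between the breeds.

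The breed difference in *miR-221* was smallest, among the fits that left out 1 library, without CNLX15. There the Montbéliarde mean was 1840 ± 393 (SD, n = 5), and edgeR gave a log2FC of 0.40 ± 0.16 (standard error) with an adjusted p of 0.272. Without both CNLX15 and CNLX21, edgeR gave 0.27 ± 0.14 (standard error) with an adjusted p of 0.421. These 2 libraries had the highest counts of *miR-221*, 4642 and 2408, and also of *miR-222*. Leaving them out must therefore lower the Montbéliarde mean and the log2FC. With 1 library left out at a time, the log2FC was between 0.40 and 0.74, beside 0.63 with all libraries.

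*MiR-222* had fewer reads than *miR-221* in every library. Its normalized read count was 226.5 in CNLX1, 195.5 in CNLX3, 232 in CNLX5, 230 in CNLX7 and 185 in CNLX9. In Montbéliarde the lowest count was 191 in CNLX23, the median 238 and the highest 555 in CNLX15, with 377 in CNLX21 as the second highest. The other 4 Montbéliarde libraries were between 191 and 239 and thus within or just above the Holstein range.

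Mean *miR-222* counts were 214 ± 21.9 (SD, n = 5) for Holstein cows and 303 ± 139 (SD, n = 6) for Montbéliarde cows, and their ratio was 1.42. The log2FC of 0.49 (standard error 0.26) did not pass the threshold (adjusted p = 0.398 by edgeR, and 0.333 by DESeq2), and its unadjusted p was 0.0832. The exact permutation test of the log2 levels gave p = 0.152. Without CNLX15, edgeR gave a log2FC of 0.33 ± 0.21 (standard error) and an adjusted p of 0.520, and without CNLX15 and CNLX21 one of 0.12 ± 0.16 and an adjusted p of 0.812. In the latter case the Montbéliarde mean, 221.8 ± 22.3 (SD, n = 4), was 1.04 times the Holstein mean.

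**Figure D1:**
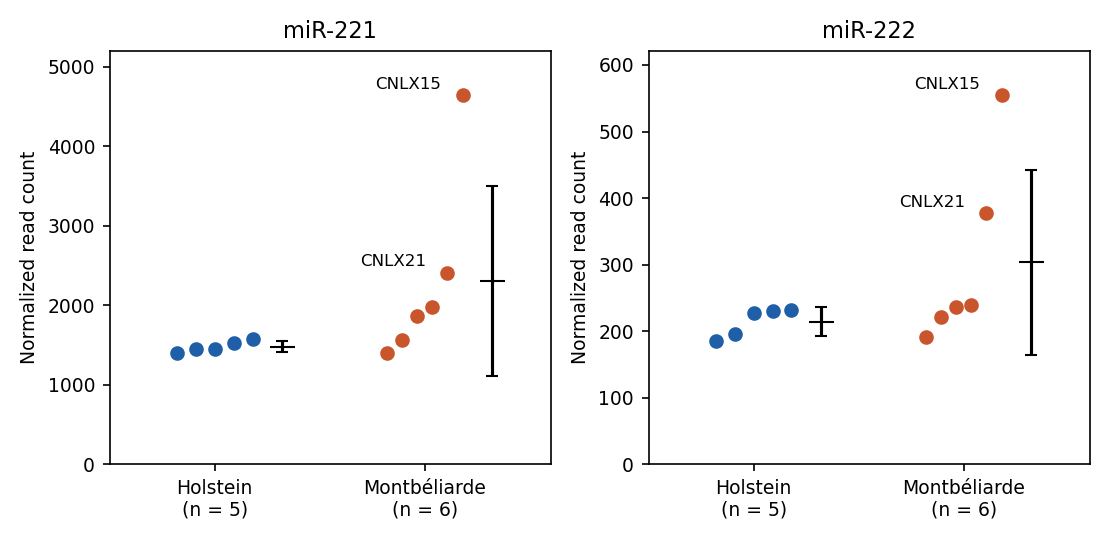
Normalized read counts of *miR-221* (left) and *miR-222* (right) in 5 Holstein and 6 Montbéliarde libraries, with 1 point per cow and the mean ± SD beside the points. The Holstein points lie close together, and CNLX15 is the highest point in both panels, at 4642 and 555.

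**Figure D2:**
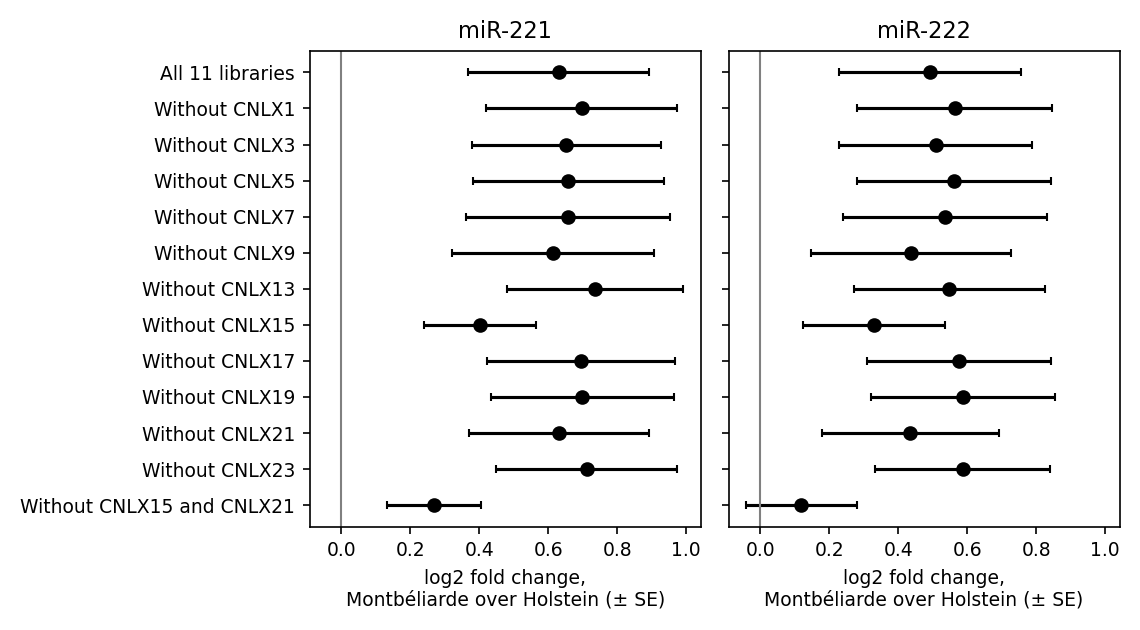
Log2 fold change (Montbéliarde over Holstein, ± standard error, edgeR) of *miR-221* and *miR-222* with all libraries, when any 1 library was omitted, and without CNLX15 and CNLX21. All estimates are above 0, and the lowest ones are those without CNLX15 and CNLX21, 0.27 and 0.12.

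Among the 754 miRNAs with at least 1 count, *miR-221* ranked 94 and *miR-222* ranked 164 by mean normalized read count. In single Holstein libraries *miR-221* ranked 100 to 109, and in single Montbéliarde libraries 78 to 105. *MiR-222* ranked 166 to 181 in the former and 145 to 185 in the latter.

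In the library with the highest share, CNLX15, *miR-221* held 0.04065% of the counted reads (Wilson 95% interval, 0.03937 to 0.04198%). In the library with the lowest share, CNLX3, it held 0.01299% (0.01232 to 0.01370%). Counting error was thus small beside the spread between these cows, although such intervals leave out everything but counting error and treat PCR copies as separate molecules. For *miR-222* the shares were 0.004859% (0.004427 to 0.005332%) in CNLX15 and 0.001815% (0.001575 to 0.002091%) in CNLX3.

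The SD between cows was smaller in Holstein than in Montbéliarde for both miRNAs. The SD of the level of *miR-221* on the log2(normalized read count + 1) scale was 0.07 in Holstein, and 98.1% of the 214 miRNAs with a mean normalized read count of at least 100 had a larger SD there. In Montbéliarde its SD was 0.62, and 21.96% of these miRNAs had a larger SD. For *miR-222* the SD was 0.15 in Holstein, exceeded by 74.3% of the 214 miRNAs, and 0.58 in Montbéliarde, exceeded by 26.6%. The median SD of the 214 miRNAs was also higher in Montbéliarde, 0.44 against 0.21 in Holstein. The difference in spread between the breeds was not tested.

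The levels of both miRNAs were related across the 11 libraries, with Pearson's r of 0.93 on the log2(normalized read count + 1) scale (permutation test, p = 0.00187). Spearman's rho was 0.55 (permutation test, p = 0.0885). It depended on the scaling between libraries. With the TMM scaling of edgeR rho was 0.75, and with log2 shares of the library total it was 0.80 (permutation tests, p = 0.0109 and 0.00453). Pearson's r was 0.93 and 0.92 with these scalings. The size of r depended on CNLX15 and CNLX21, the libraries farthest from the median of *miR-221* and the highest for both miRNAs. Leaving out such extremes narrows the range and can lower r by itself. Without them r was 0.34 (exact permutation test, p = 0.370). Within Montbéliarde r was 0.93 and rho 0.83 (n = 6, exact permutation tests, p = 0.0125 and 0.0583), and within Holstein, with 5 libraries, no correlation was computed. With the breed means subtracted, r was 0.91 and rho 0.93 (permutation within breeds, p = 0.00957 and 0.00832). The values within Montbéliarde and those with breed means subtracted include CNLX15 and CNLX21, and they were not computed without them. Both libraries also enter the Montbéliarde mean that was subtracted.

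**Figure D3:**
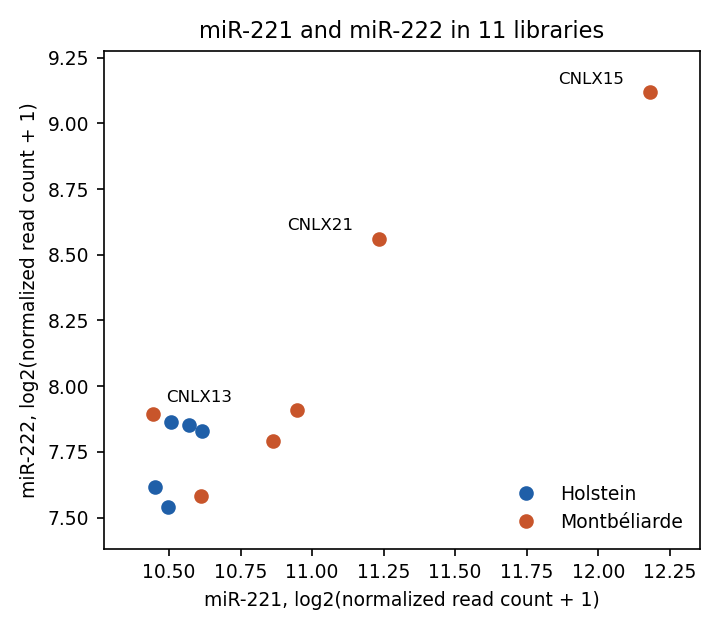
Level of *miR-222* against that of *miR-221*, both as log2(normalized read count + 1), with 1 point per library. CNLX15 and CNLX21 lie at the upper right, and the other 9 libraries form a group without a clear slope (r = 0.34).

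Between 5.89 and 8.44 reads of *miR-221* were counted per read of *miR-222* in a library, with a mean of 7.30 ± 0.945 (SD, n = 11). This ratio needs no scaling between libraries, but it is a ratio of reads and not of molecules, since adaptors are not ligated equally well to all small RNAs. The reads of *miR-222* made up, of the reads of both miRNAs, 12.6% ± 0.905 (SD, n = 5) in Holstein cows and 11.8% ± 1.73 (SD, n = 6) in Montbéliarde cows. The mean log2 ratio of *miR-222* to *miR-221* was lower in Montbéliarde by 0.12, with p = 0.329 by an exact permutation test of the difference in means.

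Within Montbéliarde, the share of *miR-222* was lowest in CNLX17, at 10.6%, and highest in CNLX13, at 14.5%. In CNLX15, where both miRNAs were highest, it was 10.7%, and in CNLX21 it was 13.5%. Over all libraries pooled the share was 12.1%, with 2993 reads of *miR-222* and 21644 of *miR-221*. The Wilson 95% confidence interval included this pooled share in 6 libraries and did not in the other 5, namely CNLX5, CNLX13, CNLX15, CNLX19 and CNLX21.

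**Figure D4:**
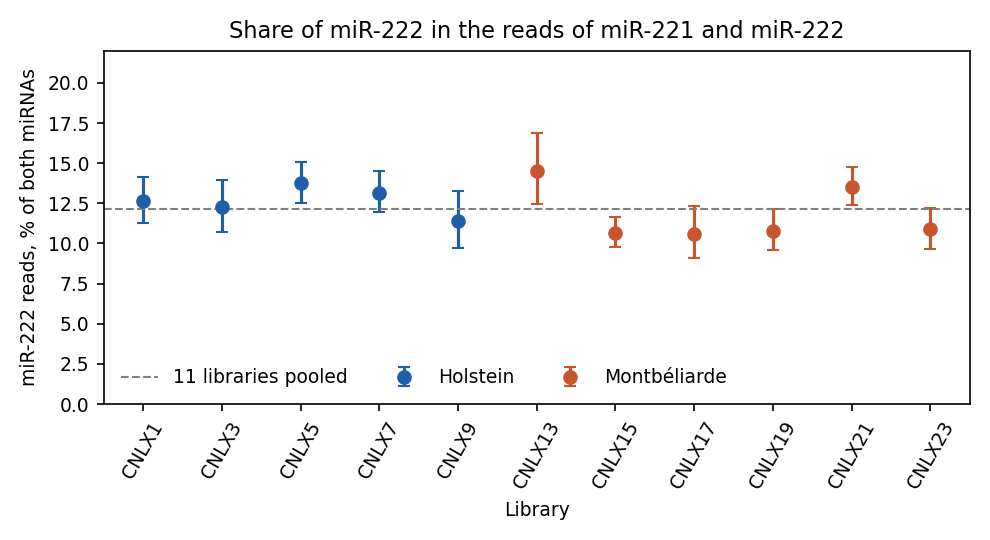
Reads of *miR-222* as a percentage of the reads of *miR-221* and *miR-222* in each library, with Wilson 95% confidence intervals, and the pooled share of 12.1% as a dashed line. The points of both breeds lie on either side of the line, from 10.6% to 14.5%.

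MiRNAs that are characteristic of cell types were set beside both miRNAs, because a biopsy mixes cells. In such bulk samples, fewer cells of a type and less RNA per cell cannot be told apart. The level of a list was the mean log2(normalized read count + 1) of its miRNAs. The epithelial list, 6 miRNAs (*miR-200a*, *miR-200b*, *miR-200c*, *miR-141*, *miR-429* and *miR-205*) known to keep epithelial cells from mesenchymal transition or to mark them, was at 14.6 ± 0.129 (SD, n = 5) for Holstein and at 14.3 ± 0.465 (SD, n = 6) for Montbéliarde. Its lowest levels were 13.6 in CNLX15 and 13.9 in CNLX21, against at least 14.4 in the other libraries. In these same libraries the list of fibroblast and smooth muscle miRNAs (*miR-143*, *miR-145*, *miR-199a-3p*, *miR-199a-5p*, *miR-199b* and *miR-214*) had its highest levels, 13.6 and 12.9. The leukocyte list (*miR-142-3p*, *miR-142-5p*, *miR-150*, *miR-155* and *miR-223*) also had its highest levels there, 11.4 in CNLX15 and 10.8 in CNLX21.

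Summed over the epithelial list, normalized read counts were 367535 to 466746 per Holstein library and 180093 to 469496 per Montbéliarde library. The sums for fibroblast and smooth muscle miRNAs were 1513729 to 2305716 for Holstein and 1928358 to 3870328 for Montbéliarde, the highest in CNLX15. Leukocyte miRNAs summed to 18031 to 26952 per Holstein library and 17229 to 39422 per Montbéliarde library, again with the highest in CNLX15. Thus CNLX15 was at or near the Montbéliarde extreme for each of these lists. On average most of each list's sum came from a single miRNA, and the sums mainly describe these miRNAs. *MiR-141* averaged 310902 in Holstein and 188093 in Montbéliarde, *miR-143* 1838346 and 2757166, and *miR-142-5p* 19815 and 23011. Endothelial *miR-126-3p* and *miR-126-5p* together reached 251466 to 330168 per Holstein library and 239684 to 297168 per Montbéliarde library. No miRNA of these 4 lists was at 0 on average in either breed. In mean level, none of the 6 lists, which also covered erythroid and striated muscle miRNAs, passed the threshold between the breeds (exact permutation tests, adjusted p between 0.656 and 0.991). Before adjustment the p of these mean levels was at least 0.204, which does not cover the sums. On the scale of the log2 of summed counts, the difference (Montbéliarde minus Holstein) was -0.66 for the epithelial list, against -0.31 for the mean level, and 0.56 for the fibroblast and smooth muscle list, against 0.29 (exact permutation tests on the sums, adjusted p = 0.0909 for each). Without CNLX15 the differences in mean level were -0.16 and 0.09, and that of the leukocyte list was 0.04, against 0.26 with it (exact permutation tests, adjusted p = 0.873 for each).

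None of the single miRNAs of these lists passed the threshold in edgeR, against the 0.364% of all tested miRNAs. The median log2FC of the fibroblast and smooth muscle list was 0.56, with 5 of its 6 miRNAs positive, and that of the leukocyte list was 0.40, with 5 of 5 positive. The erythroid list had a median of 0.28, with 3 of 3 positive. Over all 550 tested miRNAs the median was 0.03, with 288 positive. At an unadjusted p of at most 0.05, *miR-143* and *miR-199a-3p* were higher in Montbéliarde, with a log2FC of 0.58 and 0.67. Of all 550 tested miRNAs, 42 were higher in Montbéliarde at this limit and 36 higher in Holstein, together 14.2%. The epithelial list had a median of -0.21, with 1 of its 6 miRNAs positive and 5 negative. Its *miR-141* was at -0.74 and *miR-200c* at -0.61, both higher in Holstein before adjustment only, while *miR-200a* was at -0.04, *miR-200b* at -0.10, *miR-429* at -0.33 and *miR-205* at 0.39.

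Among the 12 relations of both miRNAs with the 6 lists, 6 had an adjusted p of at most 0.05 by Pearson's r. By Spearman's rho 2 did, those of *miR-221* with the epithelial list and of *miR-222* with the erythroid list. *MiR-221* was related to the epithelial list with r = -0.93 (permutation test, adjusted p = 0.00576) and rho = -0.78 (adjusted p = 0.0434, permutation test). Without CNLX15 and CNLX21, the 2 libraries farthest from the median of the list, r was -0.52. *MiR-222* was related to this list with r = -0.92 and rho = -0.55 (permutation tests, adjusted p = 0.00741 and 0.211), and r was -0.21 without those 2 libraries. The members of the epithelial list did not all vary alike. *MiR-205* had r = 0.33 with *miR-221* and 0.26 with *miR-222*. The other members were between -0.97 and -0.74 with *miR-221* and between -0.93 and -0.64 with *miR-222*.

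With the fibroblast and smooth muscle list, r was 0.89 for *miR-221* and 0.93 for *miR-222* (permutation tests, adjusted p = 0.0158 and 0.00741), and rho was 0.38 and 0.62. With the leukocyte list, r was 0.79 and 0.90 (permutation tests, adjusted p = 0.0251 and 0.00576), and rho was 0.31 and 0.63. None of these values of rho passed the threshold after adjustment. Without CNLX15 and CNLX21, again the farthest from the median of each list, r was -0.09 and 0.30 for the fibroblast and smooth muscle list and -0.24 and 0.45 for the leukocyte list. These libraries are extremes of both lists and of both miRNAs. Leaving them out narrows the range and can lower r by itself, so it cannot show what the relations rest on. Without CNLX15 alone, r was 0.56 and 0.78 for the fibroblast and smooth muscle list and 0.39 and 0.75 for the leukocyte list. Within the fibroblast and smooth muscle list, *miR-145* had r = 0.25 with *miR-221* and 0.24 with *miR-222* over all libraries. The other members of this list were between 0.73 and 0.90 and between 0.74 and 0.94.

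Without CNLX15 alone, none of the 12 relations passed the threshold. The nearest were those of *miR-221* with the epithelial list, with r = -0.82, and of *miR-222* with the leukocyte list, with r = 0.75 (permutation tests, adjusted p = 0.0538 for each). Within the 6 Montbéliarde libraries, r with the epithelial list was -0.94 for *miR-221* and -0.91 for *miR-222* (exact permutation tests, adjusted p = 0.0417 and 0.060). With the fibroblast and smooth muscle list it was 0.96 and 0.99 there (adjusted p = 0.0444 and 0.0417, exact permutation tests), and with the leukocyte list 0.87 and 0.96 (adjusted p = 0.0639 and 0.05, exact permutation tests). The part of tissue composition in the levels of *miR-221* and *miR-222* was not tested.

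The endothelial list was not related to either miRNA beyond the threshold, with r = -0.38 for *miR-221* and -0.37 for *miR-222* (permutation tests, adjusted p = 0.353 for each). *MiR-126-5p*, an endothelial miRNA hosted by *EGFL7*, had 256878 ± 30850 normalized reads (SD, n = 5) for Holstein cows and 247965 ± 21076 (SD, n = 6) for Montbéliarde cows. In CNLX15 the level of the endothelial list was 16.05, the lowest of the 11 libraries, and its summed count was 254222, within the Holstein range. The erythroid list had r = -0.28 with *miR-221* and -0.45 with *miR-222* (adjusted p = 0.402 and 0.271, permutation tests). For *miR-222* its rho was -0.77 (permutation test, adjusted p = 0.0434). The striated muscle list had r = 0.32 and 0.29 (adjusted p = 0.402 for each, permutation tests).

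**Figure D5:**
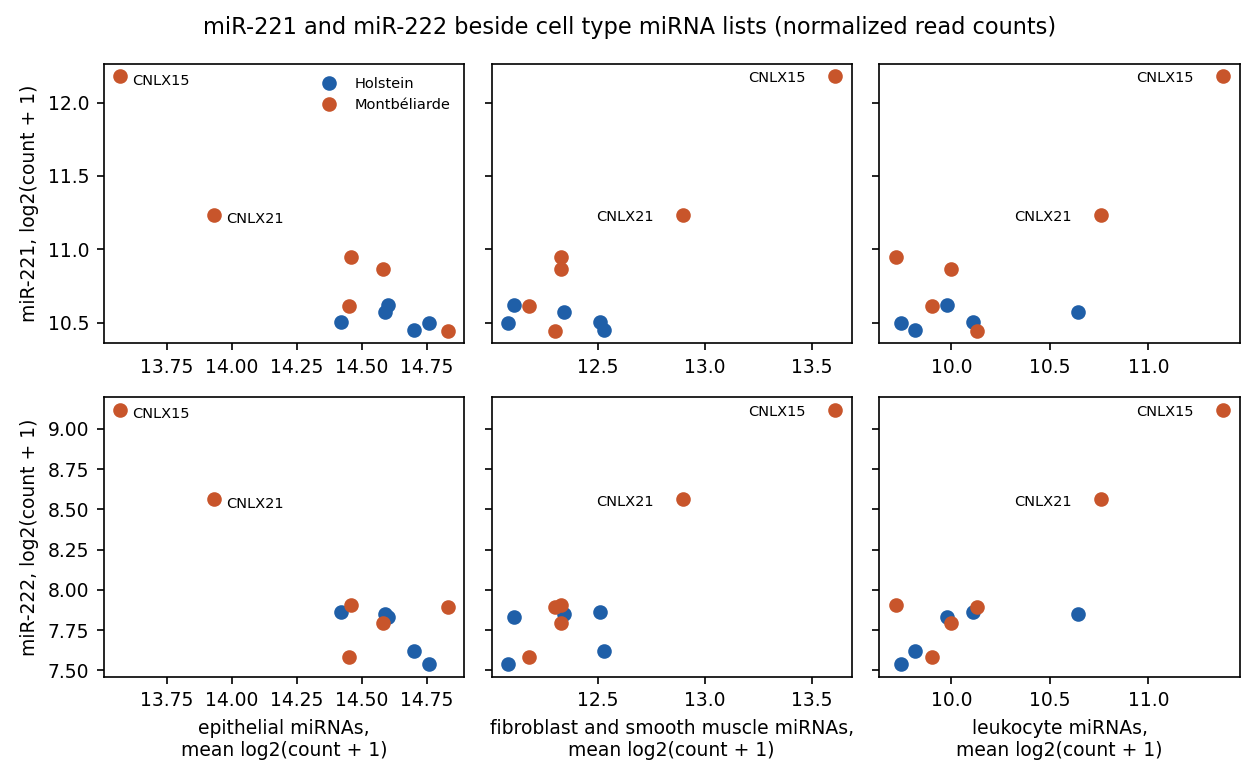
Levels of *miR-221* (top) and *miR-222* (bottom), as log2(normalized read count + 1), against the mean level of the epithelial, fibroblast and smooth muscle, and leukocyte miRNA lists on the same scale, with 1 point per library. CNLX15 and CNLX21 are low for the epithelial list, high for the others and highest for both miRNAs.

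The miRNAs with the patterns most like *miR-221* over the 11 libraries, by Pearson's r on the log2(normalized read count + 1) scale, were *miR-181c* (r = 0.96), *miR-181d* (0.93), *miR-222* (0.93), *miR-379* (0.92) and *miR-28* (0.91). They were chosen as the 5 highest of 213 miRNAs with a mean normalized read count of at least 100, so that r is a description here. Their rho was lower, at 0.65, 0.75, 0.55, 0.83 and 0.52 in the same order. Without CNLX15 the values of r for the same miRNAs were between 0.72 and 0.84, and *miR-222* moved from rank 3 to rank 7. The levels of *miR-181c* were 1546 in Holstein and 2496 in Montbéliarde on average, with a log2FC of 0.68 (adjusted p = 0.348 from edgeR).

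For *miR-222* the closest pattern was that of *miR-155*, a miRNA of activated lymphocytes and macrophages, with r = 0.98 and rho = 0.89. Without CNLX15 this r was 0.95. *MiR-181c* and *miR-199a-5p* followed with 0.94, then *miR-3604* and *miR-214* with 0.93. The rho of these miRNAs was 0.63, 0.85, 0.83 and 0.56 in the same order. *MiR-199a-5p* and *miR-214* are stromal miRNAs that are also in the fibroblast and smooth muscle list, and *miR-155* is also in the leukocyte list. *MiR-221* came at rank 8 for *miR-222*, and at rank 17 without CNLX15. *MiR-155* averaged 944.5 ± 142 (SD, n = 5) for Holstein and 1378.5 ± 706 (SD, n = 6) for Montbéliarde, and its log2FC of 0.53 did not pass the threshold (adjusted p = 0.396 from edgeR).

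*MIR1468* is the next annotated miRNA gene on the side of *MIR222*, and *miR-1468* was added here for its position, not for its values. Its normalized read count averaged 11310.5 ± 1461 (SD, n = 5) for Holstein and 9852 ± 3560.5 (SD, n = 6) for Montbéliarde, with a log2FC of -0.20 (adjusted p = 0.726 from edgeR). Its r was -0.51 with *miR-221* and -0.56 with *miR-222* over the 11 libraries, given as a description. *MIR2488*, the next annotated gene on the side of *MIR221*, was not analysed here.

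Other miRNAs known from vessels were considered because *miR-221* and *miR-222* are known to act there. Of the 20 listed, 19 were matched by name and 18 were tested, and none had an adjusted p of at most 0.05, with a background of 0.364%. The median log2FC of the 18 was -0.02, beside 0.03 for all tested miRNAs, and 9 were positive and 9 negative. At an unadjusted p of at most 0.05, *miR-130a* was higher in Montbéliarde and *miR-19a* and *miR-19b* were higher in Holstein, against 14.2% of all tested miRNAs in both directions. *MiR-130a* had 1924 ± 304 normalized reads (SD, n = 5) for Holstein cows and 2862 ± 1080 (SD, n = 6) for Montbéliarde cows, with a log2FC of 0.57. The next positive values were 0.45 for *miR-132*, known for its role in vessel sprouting, and 0.40 for *miR-24-3p*. *MiR-19a* and *miR-19b*, of the cluster of *miR-17-5p*, were at -0.76 and -0.60. *MiR-210*, a miRNA induced by hypoxia, was at 578 ± 60.6 (SD, n = 5) and 585 ± 89.6 (SD, n = 6), with a log2FC of 0.01.

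Other miRNAs known to act on *ESR1* also did not pass the threshold. Of 5 listed, 4 were matched and tested, with a median log2FC of 0.10. *MiR-18a* had 157.5 ± 29.5 normalized reads (SD, n = 5) for Holstein and 191 ± 129.5 (SD, n = 6) for Montbéliarde, and *miR-18b* 23.5 ± 5.885 and 21.8 ± 18.8. For *miR-193b* Holstein cows averaged 301 ± 28.6 (SD, n = 5) and Montbéliarde cows 361.5 ± 185 (SD, n = 6). *MiR-22-3p*, the most abundant of these, was at 120375 ± 30996 (SD, n = 5) and 105228 ± 16076 (SD, n = 6). None of the 4 had an unadjusted p of at most 0.05, and their log2FC was between -0.20 and 0.27.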

How the data were processed

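According to the methods, the authors trimmed adaptors, kept reads of 15 to 40 nt and quantified miRNAs with ncPRO-seq and miRDeep2 on btau5.0.1 and miRBase. Raw counts of reads for each mature miRNA were deposited. The authors also deposited a signal, the counts divided by DESeq2 size factors, and the factors recomputed here differed from theirs by at most 7.9e-11 in relative terms. How reads matching several miRNAs were counted is not given in the sources used here, and neither miRNA had counts in a constant ratio to another miRNA. The authors' fold changes and p-values, also in the table, were not used.

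Breeds were compared on counts with edgeR 4.0.16 in R 4.3.3 (TMM, robust quasi-likelihood fit), for the 550 miRNAs whose counts over all 11 libraries reached 10, and called at an adjusted p of at most 0.05. DESeq2 1.42.0 and limma 3.58.1 were alternatives, beside other normalizations, filters and libraries left out. Single values were compared with exact permutation tests (462 splits), two-sided. Correlations used 100000 permutations, or all of them up to 9 libraries. Adjustment followed Benjamini-Hochberg. Procedures were tested on simulated data. The depth was 6087865 to 16808976 counted reads per library.

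The miRNAs and lists were chosen with earlier results of these data known. Named were both miRNAs, for each of them the 5 miRNAs most like it by r, and the listed miRNAs. *MiR-203*, *miR-206* and *miR-23b-3p* were not matched by name. Each library is a separate cow. Sequences were not used here.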

Additional observations from a re-analysis of the deposited data

Results flagged for a closer look

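The normalized read count of *miR-221* in the Montbéliarde library CNLX15, 4642, was far from those of the other 5 Montbéliarde libraries, which were between 1393 and 2408. The gap to the nearest of them was 0.688 of the range of the breed, above Dixon's 95% critical value of 0.625 for 6 samples. This was the only value flagged among 18 groups of values tested (both miRNAs, their ratio and the 6 cell type lists, in each breed), and chance alone flags about 1 group in 20. The count of *miR-222* in the same library, 555, and the list levels did not reach their critical values. *MiR-221* was tested as a normalized read count, whereas the list levels are means of log2 values. A log2 scale draws high values closer together, and Dixon's test was not applied to the log2 levels of *miR-221*. CNLX15 also had the lowest epithelial and the highest fibroblast and smooth muscle list level of the 11 libraries, 13.6 for each.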

How the results depend on the processing

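The log2FC of *miR-221* and of *miR-222* stayed positive and did not pass the threshold under any alternative run, with adjusted p between 0.174 and 0.451 and between 0.242 and 0.812. It was 0.64 (adjusted p = 0.205) and 0.50 (adjusted p = 0.333) with DESeq2. With each library left out in turn it was between 0.40 and 0.74 for *miR-221* and between 0.33 and 0.59 for *miR-222*, the lowest without CNLX15. The largest values came with the library total as a covariate, 0.76 and 0.68. Over all miRNAs, 2 were called. The number was 20 with DESeq2 (3.96% of those with an adjusted p), 0 with RLE factors in edgeR (82 at an unadjusted p), 1 with library totals only, 0 with a mean of at least 20 (67 at an unadjusted p), and between 0 and 6 in edgeR with each library left out. It was 1 without CNLX9, 4 without CNLX13, 5 without CNLX17, 6 without CNLX23 and 0 without any 1 of the others (62 to 80 at an unadjusted p). The cause was not tested. The correlation of both miRNAs was weaker, 0.34, without CNLX15 and CNLX21. By Pearson's r, the number of relations with the lists past the threshold stayed at 6 with log2 shares of the library total. It was also 6 with breed means subtracted, and both of these settings include CNLX15 and CNLX21. The number fell from 6 to 0 without the 2 farthest libraries, and to 0 without CNLX15, chosen after seeing the data. In the former case r of *miR-221* changed sign for the fibroblast and smooth muscle list (-0.085) and the leukocyte list (-0.24). The breed difference of the erythroid list, 0.002, was -0.00396 with TMM and between -0.27 and 0.17 with each library left out, and that of the striated muscle list, 0.11, was between -0.0147 and 0.23. Leaving out CNLX15 and CNLX21 together was also chosen after seeing the data, and it removes the highest libraries of both miRNAs. No paired analysis was possible because the breeds share no replicate numbers in the labels. The reads of *miR-222*, 142 to 446 per library, limit the precision of its ratio to *miR-221*.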
